A study of Mus musculus with 40 samples.

Results

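The 13 messenger RNAs encoded by mitochondrial DNA (mtDNA) were followed through the livers of 40 mice. They were taken as all genes of the count tables whose symbol starts with mt- and whose annotated type is protein-coding, which gave 13 of 40594 genes. Of these, 7 passed the filter of 1 CPM (counts scaled to a common library total) in 5 or more mice and were tested among 12942 genes, and 6 did not. All mice were recorded as males of strain C57BL6/J, and their livers were taken at an age of 5 months. The wild-type (WT) mice came from the Jackson Laboratory and were not described as littermates of the knockout (KO) mice, in which Cre recombinase under the albumin promoter deleted a loxP-flanked PPARγ gene in hepatocytes. From an age of 2 months, for 3 months, mice of each genotype received a low-fat control diet, the control diet with 0.01% by weight pioglitazone (Pio), a high-fat diet with 60% of its calories from fat (HFD), or the HFD with the same dose of pioglitazone (HFD-Pio). Each of the 8 groups held 5 mice, and libraries were made from poly-A selected RNA with random hexamers.

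Mitochondrial DNA encodes core subunits of respiratory complexes I, III and IV and of the ATP synthase, while the other subunits and all proteins that copy, transcribe and process mtDNA come from nuclear genes. Both of its strands are transcribed as long precursors, from which the mRNAs, rRNAs and tRNAs are released, and most of the mRNAs then receive short poly-A tails. Hepatocytes are rich in mitochondria, and pioglitazone is an agonist of PPARγ, a nuclear receptor that drives fat storage genes.

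Groups are listed in the order control, Pio, HFD and HFD-Pio throughout. The median library held 27682270, 25319366, 18060153 and 23274409 counts in the WT groups. The KO medians were 24741224, 24759887, 23402279 and 25156615. Single libraries ran from 15788242 to 49857017 counts in WT mice and from 21542958 to 28334251 in KO mice. WT and KO counts were deposited in separate tables, so a difference between tables and a difference between genotypes cannot be told apart. Values below are CPM scaled by edgeR's TMM factors (TMM CPM) unless another unit is given, and errors of group means are SDs over 5 mice. Pparg itself had 5.79 to 14.2 TMM CPM in single WT mice and 3.01 to 9.88 in single KO mice, and these ranges overlapped. Liver also holds cells in which the albumin promoter is silent, and in bulk RNA fewer cells of a type and less RNA per cell cannot be told apart. Of 10 hepatocyte markers, 9 were in both tables and all of those were tested. Their summed level was 35908 to 153034 TMM CPM per mouse, with Alb the most abundant on average (72336 TMM CPM).

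Some mice stood apart from their groups, and the tests were repeated without mice 845 and 13. In WT Pio mouse 845 the mtDNA-encoded mRNAs held 21.1% of the counts without rRNA, and its TMM factor was 0.791. In KO Pio mouse 13 they held 0.852%. The hepatocyte markers summed to 35908 TMM CPM in mouse 13 and to 103169.8 to 137341 in the other KO Pio mice, and 12 RNAs that lack a poly-A tail or stay in the nucleus summed to 258 against 1514 to 2025. WT HFD mouse 829 had the lowest share of these mRNAs in its group (3.72%) and a different mix of them. WT control mouse 832 had a TMM factor of 1.33. WT Pio mouse 841 had the lowest share among the WT Pio mice, 4.67%, next to 845 with the highest. Mouse 845 had 78765 TMM CPM of hepatocyte markers, near WT control mouse 832 (78182) and WT Pio mouse 841 (81001).

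The 13 mRNAs fell into those with many counts and those with almost none. Summed over 40 mice, mt-Cytb had 20354047 counts, mt-Co1 14801265, mt-Nd1 9285934, mt-Nd5 9239215, mt-Nd2 8815224, mt-Nd4 6870307 and mt-Nd6 2056782. The other 6 were at or near 0: mt-Nd3 had 206 counts in 36 mice (at most 11 in a mouse), mt-Co3 had 7, mt-Co2 3 and mt-Atp6 3, while mt-Atp8 and mt-Nd4l had 0 in all 40 mice. A count of 0 allows up to 3 counts in a library. mt-Co2 and mt-Co3 encode subunits of complex IV, mt-Atp6 and mt-Atp8 subunits of the ATP synthase, and mt-Nd3 and mt-Nd4l subunits of complex I, and no change of these mRNAs could be measured from these counts.

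The authors counted only reads that aligned to a single place, and these 6 mRNAs, apart from mt-Atp8, shared nearly all of their sequence with other annotated transcripts. Every 50-base stretch of mt-Co2 also occurred in another transcript of GENCODE M21, and the shares were 99.9% in mt-Co3, 99.5% in mt-Atp6, 98.8% in mt-Nd4l and 98.0% in mt-Nd3. Among the well-counted mRNAs they were 62.2% in mt-Nd4, 51.1% in mt-Co1, 8.19% in mt-Nd2, 7.61% in mt-Nd5 and 0% in mt-Nd1, mt-Nd6 and mt-Cytb. The matches lay mostly in 7 annotated copies on chromosome 1 of GRCm38, from 24611535 to 24616197 on the minus strand: Gm28439 (a copy of part of mt-Nd4), Gm10222 (mt-Nd4l), Gm28438 (mt-Nd3), Gm28437 (mt-Co3), Gm10925 (mt-Atp6), Gm28661 (mt-Co2) and Gm29216 (part of mt-Co1). The copies follow each other in the order of the mitochondrial genes, and over their aligned bases the first 6 were identical to them. The 7 copies together had 2 to 61 counts in a mouse, with 523 of Gm10925 over all mice the highest. mt-Atp8 shared 0% of its 50-base stretches with annotated transcripts, and its last bases overlap mt-Atp6. The 233 bases between Gm10925 and Gm28661, the place on chromosome 1 where a copy of mt-Atp8 would lie, belong to none of the 7 annotated copies, and their sequence was not analysed here. How far the copies account for the missing counts was not tested.

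The start of each coding stretch shows how close the copies are, and 3 pairs are printed for the mRNAs that lost all, nearly all or part of their sequence to a copy. Letters in capitals mark bases that differ within a pair. Bases 1 to 60 of mt-Co2 (MT:7013-7072, plus strand) and of Gm28661 (1:24615506-24615565, minus strand) had 0 differences. So had those of mt-Atp6 (MT:7927-7986, plus strand) and Gm10925 (1:24614592-24614651, minus strand). The first 60 bases of Gm29216 (1:24616138-24616197, minus strand) and bases 1054 to 1113 of mt-Co1 (MT:6381-6440, plus strand) differed at 6 positions. Counted from base 1 of mt-Co1, with the base of mt-Co1 given first, these were T1056A, C1057T, A1059G, A1060G, C1062A and A1066T, and the other 486 of 492 bases of Gm29216 were identical.
mt-Co2: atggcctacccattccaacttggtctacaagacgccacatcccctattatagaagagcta
Gm28661: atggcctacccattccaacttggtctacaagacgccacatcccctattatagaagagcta
mt-Atp6: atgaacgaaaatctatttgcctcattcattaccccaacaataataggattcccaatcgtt
Gm10925: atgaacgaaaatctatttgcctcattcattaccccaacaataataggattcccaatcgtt
mt-Co1: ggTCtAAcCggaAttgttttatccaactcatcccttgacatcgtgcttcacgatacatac
Gm29216: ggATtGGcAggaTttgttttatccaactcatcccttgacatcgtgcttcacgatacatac

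**Figure D1:**
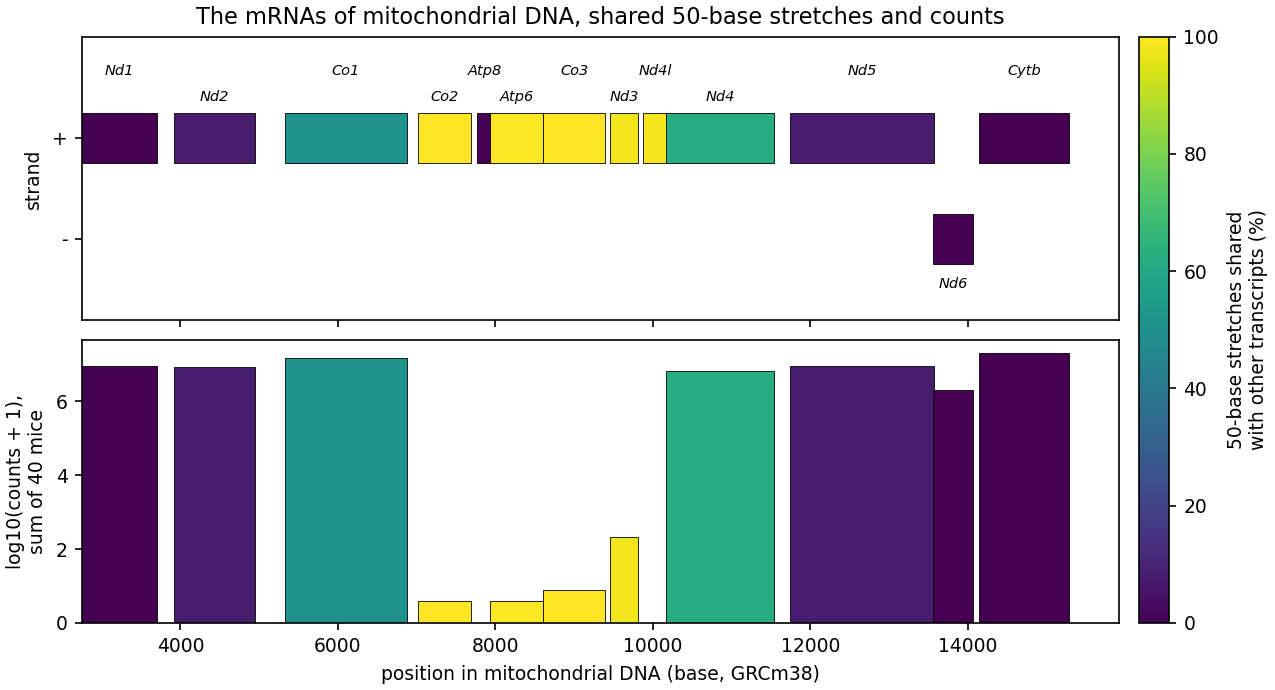
The upper panel maps the 13 mRNAs on mitochondrial DNA by strand (GRCm38 position in bases), coloured by the percentage of their 50-base stretches found in another annotated transcript, and the lower panel gives log10 of their counts plus 1, summed over 40 mice. mt-Co2, mt-Atp6, mt-Co3, mt-Nd3 and mt-Nd4l, with 98.0% or more shared, lie side by side and had 206 counts or fewer, and mt-Atp8 among them had 0.

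Levels of different mRNAs depend on the length they are divided by, and 2 lengths were used. Per kilobase of the whole gene, medians over 20 WT mice were 20484 TMM CPM for mt-Cytb, 9870.1 for mt-Co1, 8332 for mt-Nd1, 6148 for mt-Nd4, 5342 for mt-Nd2, 3959 for mt-Nd5 and 2322 for mt-Nd6, and over 20 KO mice 14620.5 for mt-Cytb, 10552 for mt-Nd2, 9493 for mt-Co1, 8728 for mt-Nd1, 5322 for mt-Nd5, 4984 for mt-Nd6 and 4101 for mt-Nd4. The other length was that of the sequence no other annotated transcript shares, which would be the right one if no read from the rest was kept, and this was not tested. On this scale the medians over 20 WT mice were 21401 TMM CPM per kilobase for mt-Cytb and 20861 for mt-Co1, followed by 16877 for mt-Nd4, 8782 for mt-Nd1, 6106 for mt-Nd2, 4403 for mt-Nd5 and 2564 for mt-Nd6. The order in KO mice was mt-Co1 (20064), mt-Cytb (15275), mt-Nd2 (12063), mt-Nd4 (11257), mt-Nd1 (9199), mt-Nd5 (5919) and mt-Nd6 (5504). The spread between WT mice had an SD of 15554 for mt-Cytb and 4111 for mt-Nd6. The mRNAs were measured in the same mice, so this spread does not decide their order. The order within single mice was not compared. Stretches of 75 and 100 bases in place of 50 lowered mt-Co1 to 17231 and 15249 in WT mice, and the length of the reads is not given in the sources used here, so the order of the mRNAs is tied to the length chosen. The 13 genes had 31.9 to 41.1% GC in the deposited tables (median 37.1%), against a median of 46.0% over the tested genes. mt-Nd6 is the only one of the 13 on the minus strand and overlaps the end of mt-Nd5, from 13552 to 13565. Whether reads were counted by strand is not given in the sources used here, so reads of RNA from the plus strand over mt-Nd6 cannot be told apart from its own.

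The summed share shows how much of each library the mtDNA-encoded mRNAs took up. In order of mouse number, it was 6.45, 4.83, 7.04, 6.28 and 5.70% in WT control mice (831 to 835) and 4.67, 10.7, 10.9, 9.10 and 21.1% in WT Pio mice (841 to 845). Of the WT Pio mice, 842 to 845 lay above all 5 WT control mice and 841 lay below all of them, with 845 far above the rest. The share was 8.95, 7.45, 6.63, 3.72 and 6.45% in WT HFD mice (826 to 830) and 6.54, 6.78, 5.74, 6.07 and 7.30% in WT HFD-Pio mice (836 to 840). These ranges overlapped each other and that of the WT control mice, and the WT HFD mice spread wider than the WT HFD-Pio mice. In KO mice it was 7.72, 7.27, 6.74, 6.44 and 6.00% in controls (1 to 5) and 6.82, 5.28, 0.852, 7.57 and 7.98% with Pio (11 to 15). Mouse 13 was the lowest of all 40, and the other KO Pio mice reached from below to above the KO control mice. KO HFD mice (6 to 10) had 7.57, 6.89, 7.66, 5.62 and 7.12% and KO HFD-Pio mice (16 to 20) 7.37, 7.82, 7.08, 7.05 and 6.64%, again overlapping. The Wilson 95% confidence interval of each share reached at most 0.0167 percentage points to either side, so counting error was small beside the spread between mice.

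Group means of the share in WT mice, from control to HFD-Pio, were 6.06 ± 0.836%, 11.3 ± 6.01%, 6.64 ± 1.91% and 6.49 ± 0.609%. Without mouse 845 the WT Pio mean was 8.86 ± 2.91% (n = 4). In KO mice the means were 6.84 ± 0.678%, 5.70 ± 2.90%, 6.97 ± 0.818% and 7.19 ± 0.435% in the same order, and 6.91 ± 1.19% (n = 4) in KO Pio mice without mouse 13. The sum over members was not tested.

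**Figure D2:**
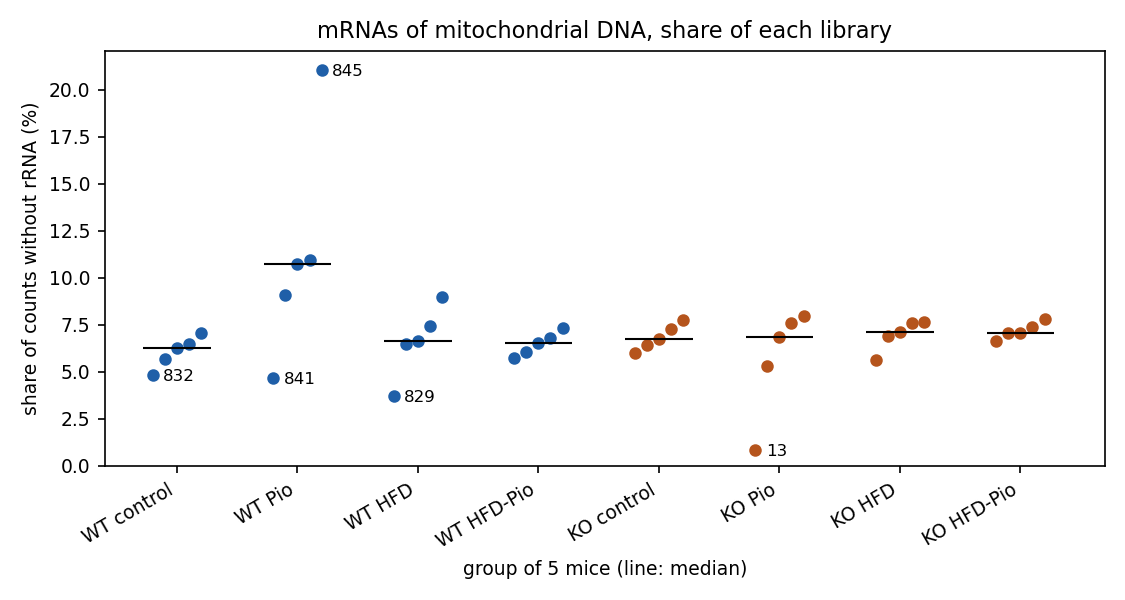
Share of the counts without rRNA (%) held by the 13 mtDNA-encoded mRNAs in each mouse (points, blue for WT and orange for KO) with the median of each group of 5 (lines). WT Pio mice ran from 4.67% in mouse 841 to 21.1% in mouse 845, and KO Pio mouse 13 had 0.852%.

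The question of what Pio does to these mRNAs in mice with hepatocyte PPARγ was put first on the control diet. Of the 7 tested mRNAs, edgeR called 3 (quasi-likelihood F test, Benjamini-Hochberg adjustment over all tested genes), against 3.91% of all tested genes, and 6 had an unadjusted p under 0.05. The median log2 fold change of the 7 was 1.19, beside -0.022 over all tested genes. The called mRNAs, mt-Nd5, mt-Nd2 and mt-Nd6, all encode subunits of complex I, the NADH dehydrogenase. For mt-Nd5, WT control mice had 7006, 4455, 7435, 5924 and 4618 TMM CPM and WT Pio mice 5134, 16751, 14131, 13080.0 and 42851, in order of mouse number. WT Pio mice 842 to 845 exceeded all WT controls, and mouse 841 lay among the controls. mt-Nd5 rose by a log2 fold change of 1.64 (SE 0.36, adjusted p = 0.00662; exact permutation test, two-sided, p = 0.0317). For mt-Nd2, the values were 4202, 3471, 4787, 5009 and 4964 in WT control and 2694, 9980.1, 11459, 8833 and 36194 in WT Pio mice. Again 4 of 5 WT Pio mice lay above every control, while mouse 841 lay below them all. mt-Nd2 rose by 1.62 (SE 0.44, adjusted p = 0.0287; exact permutation test, p = 0.0476). For mt-Nd6, from the other strand, the values were 771, 819, 1200.1, 1194 and 908 and 619.9, 2990.2, 2880.4, 2308 and 9473. Here too mice 842 to 845 lay above every control and mouse 841 below them. mt-Nd6 rose by 1.90 (SE 0.45, adjusted p = 0.0126; exact permutation test, p = 0.0476).

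The other 4 mRNAs were not called in this comparison. mt-Nd1, also of complex I, had 11670.2, 5938, 9608, 8068 and 7033 TMM CPM in WT control and 4667, 18467, 16512, 11814 and 39789 in WT Pio mice. For mt-Nd4, of the same complex, the values were 6387, 3410.5, 8075, 7972 and 6742 and 5134, 11699, 11811, 8634 and 21141. In each of these, mice 842 to 845 lay above every control. mt-Cytb, which encodes cytochrome b of complex III, had 21339.5, 9112, 24792, 20647 and 17526 and 16172, 40426, 37038, 28405 and 90646. mt-Co1, the catalytic subunit of complex IV, had 17268, 9197, 18313, 15456 and 13666 and 10096, 23753, 22042, 20399 and 26340.1. The same 4 WT Pio mice were above all controls, but in mt-Co1 mouse 845 stood out less than in the others. Log2 fold changes were 1.19 for mt-Cytb (adjusted p = 0.0717, higher in 4 of 5 mice), 1.11 for mt-Nd1 (0.0670, 4 of 5), 0.84 for mt-Nd4 (0.157, 4 of 5) and 0.47 for mt-Co1 (0.468, 4 of 5). They were 0.71, 0.61, 0.52 and 0.37 in this order without mice 845 and 13.

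These results rest in part on mouse 845. With mice 845 and 13 left out, 2 mRNAs were called, against 9.77% of all tested genes: mt-Nd5 (1.06, adjusted p = 0.00182) and mt-Nd6 (1.17, adjusted p = 0.0127). mt-Nd2 was 0.88 there (adjusted p = 0.0660). Over the other settings of the fit, most of which kept mice 845 and 13, adjusted p ran from 6.53e-06 to 0.0119 for mt-Nd5. It ran from 6.41e-05 to 0.0208 for mt-Nd6 and from 0.000958 to 0.0660 for mt-Nd2. These ranges leave out the fits without 1 mouse. The median of the 7 was 0.71 without mice 845 and 13, beside -0.028 over all tested genes. In fits that left out 1 mouse this median ran from 0.71 to 1.395. With mouse 845 alone left out, 0 of the 7 were called: mt-Nd5 was 1.06 (adjusted p = 0.0785), mt-Nd6 1.17 (0.135) and mt-Nd2 0.88 (0.298). The share of all tested genes called in this fit is not given here. Some nuclear genes described below also lost their calls in it with nearly the same values, Immt at 0.41 (0.0785) and Mterf2 at 1.13 (0.0701), while Hsd17b10 kept its call. The remaining 4 WT Pio mice had exact two-sided permutation p values of 0.0635 for mt-Nd5, 0.0952 for mt-Nd6 and 0.0952 for mt-Nd2, where 0.0159 is the smallest that 4 against 5 mice allow. The call of mt-Nd2 was also lost without WT control mice 831 (1.60), 832 (1.57), 833 (1.65) or 834 (1.67). Calls were gained for mt-Nd1 without WT Pio mouse 841 (1.35) or KO Pio mouse 13 (1.13), for mt-Cytb without WT Pio mouse 841 (1.395), WT HFD mouse 829 (1.19) or KO Pio mouse 13 (1.21) and for mt-Nd4 without KO Pio mouse 13 (0.86). DESeq2 called 5 of the 7, against 6.43% of all tested genes, and limma with sample weights 7, against 23.9%.

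**Figure D3:**
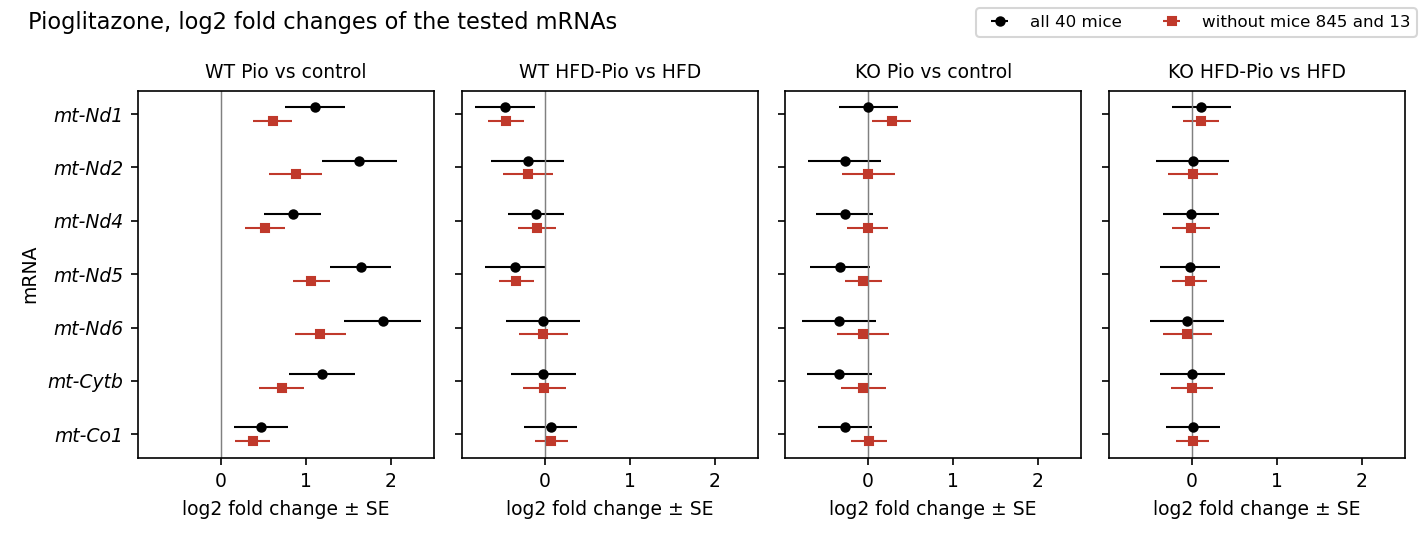
Log2 fold changes (points) and standard errors (bars) of the 7 tested mRNAs for Pio on control diet and on HFD in WT and in KO mice, with all 40 mice (black circles) and without mice 845 and 13 (red squares). In WT mice on control diet mt-Nd5 was 1.64 with and 1.06 without these mice, and in the other 3 comparisons 0 of the 7 were called.

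The same question about Pio in WT mice was then put on the HFD. Between WT HFD-Pio and WT HFD mice, 0 of the 7 mRNAs were called by edgeR (1.08% of all tested genes were), 0 had an unadjusted p under 0.05, and DESeq2 called 0 (2.85% of all) and limma 0 (8.41%). mt-Nd5 had 11599, 6557, 7708, 9415 and 6942 TMM CPM in WT HFD mice (826 to 830) and 6007, 7987, 5466, 6272 and 7541 in WT HFD-Pio mice (836 to 840). The groups overlapped, and no WT HFD-Pio mouse reached the levels of WT Pio mice 842 to 845. Log2 fold changes ran from -0.47 for mt-Nd1 (adjusted p = 0.551, lower than every WT HFD mouse in 3 of 5) to 0.071 for mt-Co1 (0.942), and their median was -0.10, beside -0.017 over all tested genes. This median ran from -0.30 to 0.10 with 1 mouse left out, on both sides of 0. The fit without mice 845 and 13 called 0 of the 7 (13.2% of all tested genes; 1 at an unadjusted p under 0.05). The sign of mt-Co1 turned without WT HFD mouse 829 (-0.076).

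The HFD without Pio was compared with the control diet next. Between WT HFD and WT control mice, 0 of the 7 mRNAs were called by edgeR (1.31% of all tested genes were), 0 had an unadjusted p under 0.05, and DESeq2 called 0 (2.98% of all) and limma 0 (2.53%). mt-Nd2 had 13041, 10131, 5537, 1948 and 5104 TMM CPM in WT HFD mice, of which 4 lay above all WT control mice and mouse 829 below them. The log2 fold change of mt-Nd2 was 0.67 (adjusted p = 0.542; exact two-sided permutation test, p = 0.278), and ran from 0.34 to 0.91 with 1 mouse left out. The values of the other mRNAs ran from -0.14 for mt-Co1 to 0.52 for mt-Nd5, with a median of 0.41 for the 7 (0.21 to 0.48 with 1 mouse left out) and 0.0020 for all tested genes. The fit without mice 845 and 13 called 0 of the 7 (7.22% of all tested genes; 2 at an unadjusted p under 0.05). Without mouse 829 the value of mt-Co1 was 0.0092.

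Among WT mice given Pio, 2 of these mRNAs were lower on HFD than on control diet. Between WT HFD-Pio and WT Pio mice, 2 of the 7 were called, against 1.22% of all tested genes, and 5 had an unadjusted p under 0.05. mt-Nd1 had 7693, 6619.5, 6977, 6578 and 7880.4 TMM CPM in WT HFD-Pio mice, within a range that 4 of 5 WT Pio mice exceeded and mouse 841 did not. mt-Nd1 fell by 1.35 on the log2 scale (SE 0.35, adjusted p = 0.0467; exact two-sided permutation test, p = 0.0476), and mt-Nd5 fell by 1.47 (SE 0.36, adjusted p = 0.0316; exact permutation test, p = 0.0476). The other 5 had negative values as well, from -1.51 for mt-Nd6 (adjusted p = 0.0765) to -0.54 for mt-Co1 and -0.54 for mt-Nd4, and the median of the 7 was -1.15, beside -0.0072 over all tested genes. This comparison shares the WT Pio mice with the comparison on control diet. Without mice 845 and 13 the same mRNAs were called, against 2.13% of all tested genes, mt-Nd1 at -0.85 (adjusted p = 0.0390) and mt-Nd5 at -0.89 (0.0220). The others were then -0.79 for mt-Nd6, -0.49 for mt-Cytb, -0.41 for mt-Nd2, -0.44 for mt-Co1 and -0.21 for mt-Nd4, and the median of the 7 was -0.49, beside -0.0064 over all tested genes. This median ran from -1.41 to -0.49 with 1 mouse left out. Over the other settings of the fit, most of which kept mice 845 and 13, adjusted p ran from 6.59e-05 to 0.0940 for mt-Nd1. For mt-Nd5 it ran from 2.34e-05 to 0.0622. Without mouse 845 alone, which these ranges leave out, mt-Nd1 and mt-Nd5 were not called, at -0.85 and -0.89 (adjusted p = 0.402 and 0.340). The share of all tested genes called in that fit is not given here. The call of mt-Nd5 was also lost without WT HFD-Pio mice 836 (-1.44), 837 (-1.54), 838 (-1.403), 839 (-1.45) or 840 (-1.51). That of mt-Nd1 was lost in 23 of 40 fits that left out 1 mouse, besides 845 those without WT control mice 834 and 835, WT Pio mice 842 and 843, WT HFD-Pio mice 836, 837, 838, 839 and 840, KO control mice 1, 2 and 4, KO Pio mouse 15, KO HFD mice 6, 7, 8 and 10 and KO HFD-Pio mice 16, 17, 18, 19 and 20 (-1.39 to -1.32). Calls were gained for mt-Nd2 without WT Pio mouse 841 (-1.41) or KO Pio mouse 13 (-1.17), for mt-Nd6 without WT Pio mouse 841 (-1.79), WT HFD mouse 829 (-1.51) or KO Pio mouse 13 (-1.53) and for mt-Cytb without KO Pio mouse 13 (-0.98). DESeq2 called 3 of the 7, against 3.01% of all tested genes, and limma 7, against 22.7%.

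Whether the effect of Pio differed between the diets in WT mice was tested as an interaction. In it, 0 of the 7 mRNAs were called by edgeR (0.0773% of all tested genes were), 5 had an unadjusted p under 0.05, and DESeq2 called 1 (1.13% of all) and limma 6 (10.6%). The difference, negative where the effect of Pio was smaller on HFD, was -1.99 for mt-Nd5 (adjusted p = 0.101), -1.92 for mt-Nd6 (0.175), -1.82 for mt-Nd2 (0.191) and -1.57 for mt-Nd1 (0.160). The median of the 7 was -1.57, beside 0.0023 over all tested genes. Over the other settings of the fit, most of which kept mice 845 and 13, adjusted p of mt-Nd5 ran from 0.000627 to 0.199. Without these mice, 1 mRNA was called, against 1.31% of all tested genes, mt-Nd5 at -1.39 (adjusted p = 0.0151). There mt-Nd6 was -1.18, mt-Nd2 -1.07 and mt-Nd1 -1.06, and the median of the 7 was -1.06, beside 0.011 over all tested genes. With 1 mouse left out the values ran from -2.23 to -1.39 for mt-Nd5, -2.19 to -1.18 for mt-Nd6, -2.09 to -1.07 for mt-Nd2 and -1.82 to -1.06 for mt-Nd1. Without WT Pio mouse 841 or KO Pio mouse 13, mt-Nd1 (-1.82 and -1.58), mt-Nd2 (-2.09 and -1.83), mt-Nd5 (-2.23 and -1.99) and mt-Nd6 (-2.19 and -1.93) were called.

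In KO mice the question was whether Pio acts on these mRNAs without PPARγ in hepatocytes. Between KO Pio and KO control mice, 0 of the 7 mRNAs were called by edgeR (9.02% of all tested genes were), 0 had an unadjusted p under 0.05, and DESeq2 called 0 (11.3% of all) and limma 0 (9.38%). mt-Nd5 had 9798, 9679.9, 10007, 8192 and 7744 TMM CPM in KO control mice (1 to 5) and 10126, 5639, 1293, 9584 and 9481 in KO Pio mice (11 to 15). Mouse 13 lay far below all the others, mouse 12 below the controls, and the remaining 3 among or just above them. mt-Cytb had 18542, 16579.8, 16879, 15002 and 13505 in KO control and 16278, 11024, 1823, 16901 and 17677 in KO Pio mice, with the same order of mice at the low end. Log2 fold changes were -0.35 for mt-Nd6 (adjusted p = 0.623), -0.34 for mt-Cytb, -0.33 for mt-Nd5, -0.28 for mt-Nd2, -0.28 for mt-Nd4, -0.27 for mt-Co1 and 0.0038 for mt-Nd1 (0.995). Their median was -0.28, beside 0.029 over all tested genes. By limma 5 of the 7 were positive, against 1 by edgeR, among them mt-Nd2 (0.053), mt-Co1 (0.039), mt-Nd4 (0.033) and mt-Nd6 (0.0069), and the median was 0.033, beside -0.0088 over all tested genes. With 1 mouse left out the edgeR median ran from -0.42 to 0.011. Without mice 845 and 13 it was -0.0044, beside -0.0048 over all tested genes, with mt-Nd1 at 0.28 and mt-Nd5 at -0.057, and edgeR called 0 of the 7 (0.626% of all tested genes; 0 at an unadjusted p under 0.05). Over all tested genes the calls went from 1167 with all mice to 81 without mice 845 and 13. The value of mt-Nd1 turned negative without KO control mice 4 (-0.026) or 5 (-0.039) or KO Pio mice 11 (-0.11), 14 (-0.13) or 15 (-0.11).

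On the HFD the KO groups lay close together. Between KO HFD-Pio and KO HFD mice, 0 of the 7 mRNAs were called by edgeR (0.0155% of all tested genes were), 0 had an unadjusted p under 0.05, and DESeq2 called 0 (0.0633% of all) and limma 0 (0%). mt-Nd5 had 9735, 11142, 10265, 9016 and 10646 TMM CPM in KO HFD mice (6 to 10) and 10123, 10670.4, 9599.6, 10043 and 9653 in KO HFD-Pio mice (16 to 20), with overlapping ranges. Log2 fold changes ran from -0.049 for mt-Nd6 to 0.11 for mt-Nd1, and the median was 0.0091 (-0.057 to 0.026 with 1 mouse left out), beside 0.00074 over all tested genes. By edgeR 4 of the 7 were positive and by limma 1, with a median of -0.050, beside 0.00028. Between KO HFD and KO control mice, 0 of the 7 mRNAs were called by edgeR (0.185% of all tested genes were), 0 had an unadjusted p under 0.05, and DESeq2 called 0 (0.428% of all) and limma 0 (4.19%). The values ran from -0.057 for mt-Co1 to 0.17 for mt-Nd6 (higher than every KO control mouse in 4 of 5; exact two-sided permutation test, p = 0.0556), and the median was 0.066 (0.014 to 0.11 with 1 mouse left out), beside -0.010. mt-Co1 turned positive without KO control mouse 1 (0.017) or KO HFD mouse 9 (0.014). With mice 845 and 13 left out, edgeR called 0 of the 7 (0% of all tested genes; 0 at an unadjusted p under 0.05) for Pio on HFD and 0 of the 7 (0.386% of all tested genes; 0 at an unadjusted p under 0.05) for HFD without Pio. KO HFD mouse 9 had the lowest mt-Co1, mt-Nd4 and mt-Cytb of its group.

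Between KO HFD-Pio and KO Pio mice, 0 of the 7 mRNAs were called by edgeR (4.96% of all tested genes were), 0 had an unadjusted p under 0.05, and DESeq2 called 0 (7.95% of all) and limma 0 (2.39%). The values ran from 0.11 for mt-Nd1 to 0.47 for mt-Nd5, with a median of 0.36, beside -0.018 over all tested genes. The median was 0.085 without mice 845 and 13 and 0.016 by limma, beside -6.1e-05 and 0.0088, and ran from 0.085 to 0.50 with 1 mouse left out. All 7 values were positive by edgeR and 4 by limma. mt-Nd1 was -0.16 without mouse 13. In the interaction of Pio and diet in KO mice, 0 of the 7 mRNAs were called by edgeR (0% of all tested genes were), 0 had an unadjusted p under 0.05, and DESeq2 called 0 (0% of all) and limma 0 (0.402%). Its median for the 7 was 0.29 with all mice, beside -0.051 over all tested genes, 0.0051 without mice 845 and 13, beside 0.0076, and -0.071 by limma, beside 0.015. It ran from -0.014 to 0.43 with 1 mouse left out. By edgeR 7 of the 7 values were positive and by limma 0, so their sign depended on the tool, and mt-Nd1 was -0.18 without mouse 13. With mice 845 and 13 left out, edgeR called 0 of the 7 (0.0618% of all tested genes; 0 at an unadjusted p under 0.05) between KO HFD-Pio and KO Pio mice and 0 of the 7 (0% of all tested genes; 0 at an unadjusted p under 0.05) in the interaction.

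The difference between the effects of Pio in KO and WT mice was tested as an interaction, which compares changes within each table and not levels between them. On control diet 3 of the 7 mRNAs were called, against 7.88% of all tested genes, and 6 had an unadjusted p under 0.05. They were the complex I mRNAs mt-Nd6 (-2.25, SE 0.62, adjusted p = 0.0252), mt-Nd5 (-1.97, SE 0.50, 0.0163) and mt-Nd2 (-1.90, SE 0.61, 0.0488), all with a smaller effect in KO mice. In each of them 4 of 5 WT Pio mice exceeded all WT controls, while KO Pio mice 12 and 13 lay below all KO controls and the other 3 among or just above them. The values of the others were -1.52 for mt-Cytb (0.0684), -1.12 for mt-Nd4, -1.10 for mt-Nd1 and -0.75 for mt-Co1, and the median of the 7 was -1.52, beside 0.061 over all tested genes. DESeq2 called 4 and limma 4, against 11.0% and 15.4% of all tested genes. Without mice 845 and 13, 1 was called, against 3.96% of all, mt-Nd5 at -1.12 (adjusted p = 0.0319), with a median of -0.77, beside 0.019 over all tested genes. mt-Nd6 was -1.23 there, mt-Nd2 -0.88, mt-Cytb -0.77, mt-Nd4 -0.52, mt-Nd1 -0.33 and mt-Co1 -0.36. With 1 mouse left out the median ran from -1.73 to -1.05. Over the other settings of the fit, most of which kept mice 845 and 13, adjusted p of mt-Nd5 ran from 0.000524 to 0.0394. Without mouse 845 alone, which this range leaves out, 0 were called, with mt-Nd5 at -1.39 (adjusted p = 0.0603), mt-Nd6 at -1.51 and mt-Nd2 at -1.15. The share of all tested genes called in that fit is not given here. The call of mt-Nd2 was lost in 32 of 40 fits that left out 1 mouse, all except those without WT Pio mice 841 and 844, WT HFD mice 826 and 829, KO Pio mice 11, 14 and 15 and KO HFD mouse 9, and its value there ran from -1.99 to -1.15. Calls were gained for mt-Nd1 without WT Pio mouse 841 (-1.35) and for mt-Cytb without WT Pio mouse 841 (-1.73), WT HFD mouse 829 (-1.52) or KO Pio mice 11 (-1.63), 14 (-1.65) or 15 (-1.67).

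On HFD, 0 of the 7 mRNAs were called by edgeR (0.0927% of all tested genes were), 0 had an unadjusted p under 0.05, and DESeq2 called 0 (0.206% of all) and limma 0 (2.74%) for the difference between genotypes. The values ran from -0.055 for mt-Co1 to 0.58 for mt-Nd1, with a median of 0.10 (-0.091 to 0.28 with 1 mouse left out), beside 0.0078 over all tested genes. The fit without mice 845 and 13 called 0 of the 7 (0.170% of all tested genes; 0 at an unadjusted p under 0.05). mt-Co1 was 0.092 without WT HFD mouse 829.

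The mix of mRNAs within the mtDNA-encoded pool did not depend on how nuclear genes are scaled. In WT control mice mt-Cytb made up 30.6 ± 3.26% of the pool, mt-Co1 24.8 ± 0.484%, mt-Nd1 14.3 ± 2.17%, mt-Nd4 10.8 ± 1.48%, mt-Nd5 10.0 ± 1.46%, mt-Nd2 7.77 ± 1.50% and mt-Nd6 1.70 ± 0.409%. In WT Pio mice mt-Co1 made up 18.5 ± 5.08%, below every WT control mouse in all 5, and mt-Nd5 13.5 ± 1.77%. Mouse 845 had 9.89% mt-Co1, 13.6% mt-Nd2 and 16.1% mt-Nd5, so its high level was not shared evenly among the mRNAs. WT HFD mouse 829 had 27.6% mt-Nd1, 23.0% mt-Nd5 and 16.4% mt-Cytb, unlike every other mouse. Mouse 13, whose share of the library was the lowest, had the lowest mt-Co1 (18.8%), mt-Cytb (21.1%) and mt-Nd6 (2.76%) of all KO mice. It also had their highest mt-Nd4 (9.62%) and mt-Nd1 (16.7%). In KO Pio mice mt-Nd1 made up 15.0 ± 1.03%, against 12.2 ± 0.346% in KO control mice, and every KO Pio mouse lay above every KO control mouse.

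Over all 20 mice of a genotype, mt-Nd2 made up 9.03 ± 2.56% of the pool in WT and 15.8 ± 0.799% in KO mice. mt-Nd6 made up 1.96 ± 0.569% and 3.70 ± 0.337%, mt-Cytb 31.7 ± 4.23% and 23.8 ± 0.931%, and mt-Nd4 11.2 ± 1.93% and 8.23 ± 0.374%. mt-Nd5 made up 11.6 ± 3.34% and 14.1 ± 0.978%, mt-Co1 21.0 ± 3.79% and 21.4 ± 1.26%, and mt-Nd1 13.5 ± 3.94% and 12.9 ± 1.48%. The mean shares of mt-Nd2, mt-Nd5 and mt-Nd6 were thus higher and those of mt-Cytb and mt-Nd4 lower in KO mice, and the SD of each of the 7 was smaller there. Ranges over single mice overlapped for all 7, for mt-Nd2 with 14.3% as the highest WT and 14.1% as the lowest KO value. Without mice 829, 845 and 13 they no longer overlapped for mt-Nd6 (up to 2.49% in WT and from 3.31% in KO mice) and mt-Nd4 (from 9.24% and up to 8.56%). Those of mt-Cytb then lay just apart, from 25.03% in WT and up to 25.01% in KO mice. The mice left out held extreme pool shares themselves, such as 16.4% mt-Cytb in mouse 829 and 9.62% mt-Nd4 in mouse 13. They were left out here with these shares known, and leaving out extreme values narrows ranges, so this separation is no test. Since each genotype has its own table, its part in these differences was not tested. Without mice 829 and 845 the WT means of mt-Nd2, mt-Nd5 and mt-Cytb were 9.01 ± 2.24%, 10.8 ± 1.69% and 32.4 ± 2.34% (n = 18).

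**Figure D4:**
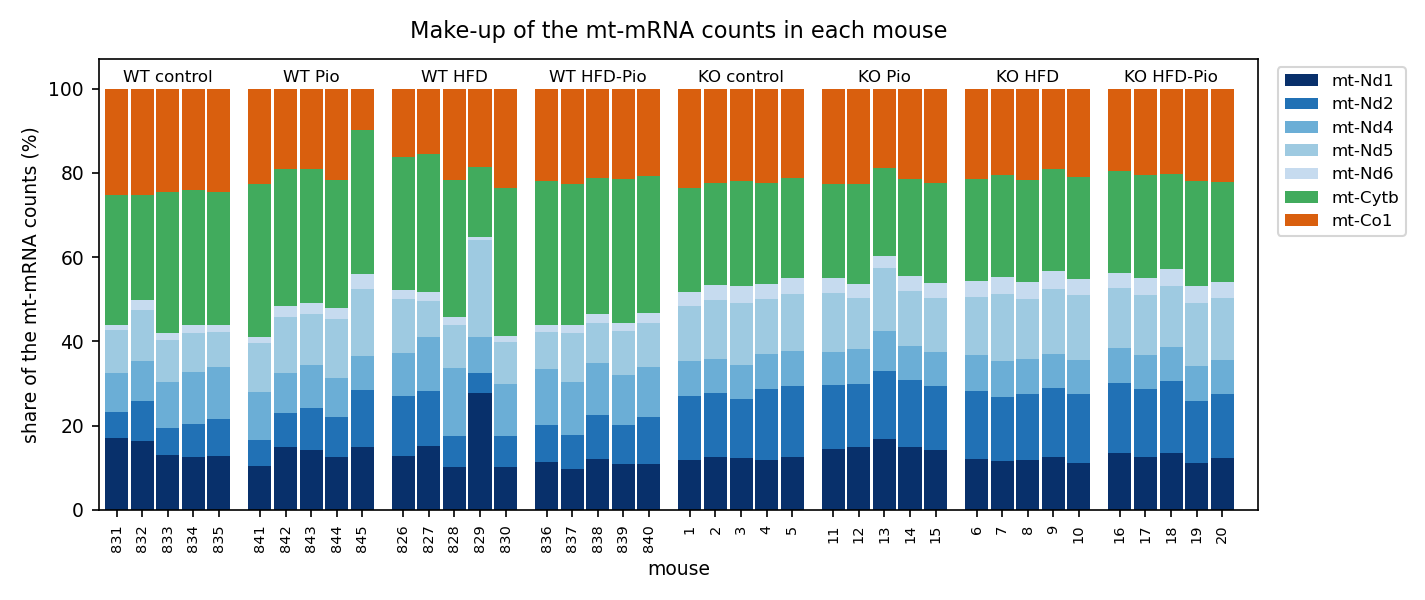
Share (%) of each of the 7 tested mRNAs in the counts of mtDNA-encoded mRNAs, as stacked bars with 1 bar per mouse, by group. Mouse 829 had 27.6% mt-Nd1 and mouse 845 had 9.89% mt-Co1, apart from the other mice of their groups.

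mt-Nd6 is read from the opposite strand to the other 12 mRNAs, and its counts were compared with theirs within each mouse. In the WT groups they came to 1.73 ± 0.423%, 2.53 ± 0.805%, 1.76 ± 0.535% and 1.99 ± 0.223% of the counts of the other mRNAs. Mouse 845 had 3.69%, the highest of the WT mice, mouse 841 1.41% and mouse 829 0.878%. The KO values were 3.80 ± 0.234%, 3.44 ± 0.360%, 4.18 ± 0.190% and 3.98 ± 0.179%, and mouse 13 had 2.84%. All levels, that of mt-Nd6 included, were read after poly-A selection, and poly-A tails were not measured. The rRNAs and tRNAs of mtDNA have little or no poly-A tail. mt-Rnr1, the small ribosomal RNA, went from 1419 ± 538 to 1955 ± 849 TMM CPM with Pio on control diet in WT mice and from 2464 ± 775 to 2332 ± 1244 in KO mice, and mt-Rnr2, the large ribosomal RNA, from 1029 ± 344 to 1220.0 ± 412 and from 3062 ± 873 to 2339 ± 1321. The ranges with and without Pio overlapped for both. The 22 tRNAs together had 43.1 ± 4.28 TMM CPM in WT control and 102 ± 77.7 in WT Pio mice (24.6 to 233 in single mice). Of them 11 were tested and 0 were called for Pio on control diet in WT mice by edgeR (3 at an unadjusted p under 0.05; DESeq2 2, limma 4), against 3.91% of all tested genes by edgeR, 6.43% by DESeq2 and 23.9% by limma, with a median log2 fold change of 1.00, and the median was -0.51 in KO mice with 0 called (1 unadjusted; DESeq2 0, limma 0), against 9.02, 11.3 and 9.38% of all tested genes.

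Nuclear genes that act on mtDNA or its RNAs, and nuclear subunits of the same complexes, were read beside these mRNAs. The numbers in brackets are the median log2 fold change of a list and its count of genes with an unadjusted p under 0.05. For Pio on control diet in WT mice, edgeR called 1 of 16 genes of mtDNA transcription and replication (0.085, 1), 2 of 21 of mitochondrial RNA processing and stability (0.046, 2), 1 of 8 regulators of mitochondrial genes (0.0034, 4) and 1 of 10 markers of mitochondrial mass (0.021, 2). Of nuclear subunits it called 0 of 37 of complex I (0.10, 4), 0 of 4 of complex II, which has no mtDNA-encoded subunit (0.25, 0), 0 of 9 of complex III (0.22, 1), 0 of 11 of complex IV (0.039, 0) and 1 of 15 of the ATP synthase (0.091, 4). Together these were 6 of 131 genes, beside 3.91% of all tested genes. The calls in the same order were 1, 2, 1, 1, 0, 0, 0, 0 and 2 by DESeq2 (6.43% of all tested genes), 2, 3, 1, 4, 6, 0, 2, 0 and 5 by limma (23.9%), and 1, 2, 2, 2, 5, 1, 0, 0 and 3 by edgeR without mice 845 and 13 (9.77%). The median over all tested genes was -0.022. Hsd17b10, a dehydrogenase that is also part of the enzyme that trims the 5′ ends of mitochondrial tRNAs, had 124, 51.5, 111, 101 and 143 TMM CPM in WT control and 278, 296, 232, 297 and 219.8 in WT Pio mice. Every WT Pio mouse lay above every control, mouse 841 included. Hsd17b10 rose by 1.32 (SE 0.26, adjusted p = 0.00268), a call that no fit with 1 mouse left out changed. Rexo2, which degrades short mitochondrial RNA, rose by 0.56 (adjusted p = 0.0261, above every control in 4 of 5 mice), and Mterf2, a factor that binds mtDNA, rose by 1.18 (0.0241, 5 of 5). Mterf2 was near the filter of 1 CPM, with 0.501 to 1.41 TMM CPM in WT control and 1.44 to 2.38 in WT Pio mice. Immt, which shapes the cristae, rose by 0.42 (0.0349, 5 of 5), the ATP synthase subunit Atp5k rose by 1.22 (0.0361, 4 of 5), and Nrf1, a transcription factor for mitochondrial genes, fell by 0.40 (0.0282, 5 of 5). These 5 calls lay near the threshold, and fits with 1 mouse left out lost them, in part with nearly the same values. That of Mterf2 was lost without WT control mice 831 and 834 and WT Pio mice 842 and 845 (1.02 to 1.13), of Rexo2 without WT control mice 831 and 832 and WT Pio mice 843 and 845 (0.38 to 0.55), of Nrf1 without WT control mice 831, 832 and 834 and WT Pio mice 843, 844 and 845 (-0.41 to -0.31), of Immt without WT control mice 831, 833 and 835 and WT Pio mice 841, 843, 844 and 845 (0.39 to 0.42) and of Atp5k without WT control mice 831, 832 and 833 and WT Pio mice 842, 843 and 844 (1.03 to 1.24), each without any 1 of them. With mice 845 and 13 both left out, edgeR called Mterf2 (adjusted p = 0.00540), Rexo2 (0.0241), Nrf1 (0.0194), Immt (0.00533) and Atp5k (0.00323).

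The factors best known for mtDNA expression were not called there. Log2 fold changes in WT mice on control diet were 0.11 for Tfam, which packages and transcribes mtDNA (adjusted p = 0.742), and -0.39 for Polrmt, the mitochondrial RNA polymerase (0.512, lower than every control in 5 of 5). They were 0.16 for Lrpprc and 0.046 for Slirp, which together keep the mRNAs stable, -0.18 for Mtpap, the mitochondrial poly-A polymerase, and 0.66 for the coactivator Ppargc1a (0.239, higher than the control mean in 5 of 5). Polrmt (-0.38) and Ppargc1a (0.68) were called without KO Pio mouse 13. Tfam turned to -0.079 without WT Pio mouse 841, and Slirp was negative without WT control mice 831 (-0.048) or 832 (-0.14) or WT Pio mouse 841 (-0.035). Between WT HFD-Pio and WT Pio mice, 0 of 131 genes of these 9 lists were called by edgeR, beside 1.22% of all tested genes (8 at an unadjusted p under 0.05; DESeq2 1, limma 31, against 3.01% and 22.7% of all tested genes), and Ppargc1a, at -1.16, missed the threshold (adjusted p = 0.0501, lower than every WT Pio mouse in 5 of 5).

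In KO mice on control diet, edgeR called 0 of 16 genes of mtDNA transcription and replication (0.17, 4), 1 of 21 of mitochondrial RNA processing and stability (-0.16, 3), 2 of 8 regulators of mitochondrial genes (0.015, 3) and 0 of 10 markers of mitochondrial mass (0.065, 4), and of nuclear subunits 0 of 37 of complex I (-0.072, 4), 0 of 4 of complex II, which has no mtDNA-encoded subunit (-0.26, 0), 0 of 9 of complex III (0.39, 2), 1 of 11 of complex IV (0.11, 4) and 0 of 15 of the ATP synthase (-0.060, 1), beside a median of 0.029 over all tested genes. Together these were 4 of 131 genes, beside 9.02% of all tested genes. DESeq2 called 0, 2, 2, 0, 1, 0, 0, 3 and 0 in this order (11.3% of all), limma 0, 2, 1, 0, 0, 0, 0, 1 and 0 (9.38%), and edgeR called 0 in every list without mice 845 and 13 (0.626%). Hsd17b10 fell by 0.82 (adjusted p = 0.0432, below every control in 5 of 5), a call lost without KO control mice 1 (-0.83), 2 (-0.85), 3 (-0.74), 4 (-0.82) or 5 (-0.87) or KO Pio mice 12 (-0.78) or 13 (-0.56). Ppargc1b, a coactivator, rose by 1.60 (0.0115, 5 of 5) and was 1.09 and not called without mouse 13. Esrra, a nuclear receptor for mitochondrial genes, was called at 1.20 (0.0365, above every control in 1 of 5) and was -0.013 without mouse 13. Its call was also lost without KO control mice 1 (1.20), 2 (1.20), 3 (1.33), 4 (1.16) or 5 (1.15). Cox5a, of complex IV, was called at 1.07 (0.0497, 2 of 5 above every control), and kept that call only without WT control mouse 832, WT Pio mouse 845, WT HFD mouse 828, KO Pio mice 11, 12, 14 and 15 and KO HFD mouse 9, with 1.03 to 1.11 in the other fits but 0.073 without mouse 13, which had 525 TMM CPM against 77.2 to 100 in the other KO Pio mice. Of the uncalled factors, Polrmt was 0.80 with and -0.084 without mouse 13, and was called without KO Pio mice 11 (0.97), 12 (0.97), 14 (0.95) or 15 (0.96). Slirp was -0.22 with and 0.10 without that mouse, Mtpap -0.28 and 0.012, and Ppargc1a -0.14 and 0.15, while Tfam was 0.16 and Lrpprc -0.20 with all mice. Between KO HFD-Pio and KO Pio mice 2 of 131 genes were called, beside 4.96% of all tested genes, and 24 had an unadjusted p under 0.05. DESeq2 called 7 and limma 1, beside 7.95% and 2.39% of all tested genes. Fastk, which binds mt-Nd6 mRNA, was called at -0.70 (0.0476, 4 of 5 below every KO Pio mouse) and was -0.13 without mouse 13, which had 131 TMM CPM against 37.1 to 39.5 in the other KO Pio mice. Its call was also lost without WT control mouse 835, WT Pio mice 841, 843 and 844, WT HFD mouse 826, WT HFD-Pio mice 837, 838 and 839, KO control mice 1, 2, 4 and 5, KO HFD mice 6, 7, 8 and 10 and KO HFD-Pio mice 16, 17, 18, 19 and 20 (-0.73 to -0.66). Esrra was called there at -1.38 (0.0398, 3 of 5), and this was lost without KO Pio mouse 13 (-0.15) or KO HFD-Pio mice 16 (-1.45), 17 (-1.403), 18 (-1.39), 19 (-1.36) or 20 (-1.32).

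The effect of Pio on control diet differed between KO and WT mice for 3 of 131 nuclear genes of these lists, beside 7.88% of all tested genes, and 23 had an unadjusted p under 0.05. DESeq2 called 7 and limma 12, beside 11.0% and 15.4% of all tested genes. The genes called by edgeR were Hsd17b10 (-2.14, adjusted p = 0.00110), Immt (-0.69, 0.0112) and Atp5k (-1.50, 0.0479). Hsd17b10 was higher in 5 of 5 WT Pio mice and lower in 5 of 5 KO Pio mice than in every control of the same genotype. Leaving out mice 845 and 13 gave -1.95 for Hsd17b10, -0.57 for Immt and -1.34 for Atp5k, which was then not called. With 1 mouse left out, the call of Atp5k was kept without WT control mice 834 and 835, WT HFD mice 827, 828 and 829, WT HFD-Pio mouse 840, KO Pio mice 11, 12, 14 and 15 and KO HFD mouse 9 and lost in the other fits that left out 1 mouse (-1.61 to -1.22). In the other comparisons edgeR called 0 of 131 genes of the 9 lists, beside 1.08% of all tested genes for Pio on HFD in WT and 0.0155% in KO mice, 1.31% and 0.185% for HFD without Pio, 0.0773% and 0% for the interaction with diet and 0.0927% for that with genotype on HFD. Counts at an unadjusted p under 0.05 and calls by DESeq2 and limma, with the percentage of all tested genes in brackets, were 12, 2 (2.85%) and 14 (8.41%) for Pio on HFD in WT and 0, 0 (0.0633%) and 0 (0%) in KO mice, 11, 2 (2.98%) and 2 (2.53%) for HFD without Pio in WT and 0, 0 (0.428%) and 0 (4.19%) in KO mice, 11, 0 (1.13%) and 17 (10.6%) for the interaction with diet in WT and 3, 0 (0%) and 0 (0.402%) in KO mice, and 1, 0 (0.206%) and 2 (2.74%) for that with genotype on HFD.

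Markers of cell types were read in the same libraries, with the same numbers in brackets. The adipocyte marker Retn is left out of these numbers, since it passed the filter only through WT mice given Pio, and no fold change is given for it. It had 1 to 2 counts in a WT control mouse and 0 to 3 in a WT HFD mouse, 42 to 131 (2.33 to 4.76 TMM CPM) in a WT Pio mouse, 3 to 70 (0.190 to 2.18) in a WT HFD-Pio mouse and at most 11 in a KO mouse. For Pio on control diet edgeR called 0 of 9 hepatocyte (-0.19, 2), 1 of 2 adipocyte (0.81, 1), 0 of 8 Kupffer cell and macrophage (-0.25, 0), 1 of 5 blood (-0.87, 1), 0 of 6 endothelial and stellate (0.15, 1), 0 of 2 lymphocyte (-0.0085, 0) and 0 of 4 bile duct (-0.18, 1) markers in WT mice, beside 3.91% of all tested genes. The called ones, with the log2 fold change with all mice and without mice 845 and 13, were Car3 (1.14 and 1.23) and Alas2 (-0.87 and -0.76), called both times. Without mice 845 and 13 the adipocyte marker Lipe was called as well, so 2 of 2 were, beside 9.77% of all tested genes. Car3 and Lipe already had 1053 to 1917 and 11.9 to 17.3 TMM CPM in WT control mice. The other listed adipocyte markers, Adipoq, Lep and Plin1, did not pass the filter and had at most 3, 1 and 2 counts in a WT Pio mouse. In KO mice edgeR called 1 of 9 hepatocyte (-0.24, 2), 1 of 2 adipocyte (0.11, 1), 0 of 8 Kupffer cell and macrophage (-0.12, 0), 2 of 5 blood (0.82, 2), 0 of 6 endothelial and stellate (-0.18, 0), 0 of 2 lymphocyte (-0.059, 0) and 0 of 4 bile duct (0.30, 1) markers, beside 9.02% of all tested genes, namely Apob (-0.70 and -0.47), Lipe (0.84 and 0.31), Hba-a1 (1.48 and 0.88) and Hba-a2 (1.59 and 0.95), none of which was called without mice 845 and 13. In mouse 13 Lipe had 42.0 TMM CPM, against 10.2 to 15.8 in the other KO Pio mice, Hba-a1 123 against 17.6 to 62.3, and Apob 2105 against 6622 to 8047. The blood markers did not move together in this mouse, since Alas2 had 19.2, against 61.7 to 88.4 in the other KO Pio mice. On HFD, Cyp3a11 (1.98 and 1.99) was called for Pio in WT mice, and Car3 (1.47 and 1.46) for HFD without Pio, with and without these mice. The interaction with genotype was called on control diet for Malat1 (-1.57 and -1.33) and Car3 (-1.77 and -2.09), with and without these mice. For Hba-a1 (2.39 and 1.61) and Hba-a2 (2.53 and 1.69) it was called on control diet with all mice only. Malat1 had 143 TMM CPM in mouse 13 and 1111 to 1491 in the other KO Pio mice. In WT Pio mice it had 1871 to 2465, each above every WT control mouse (1020 to 1815). Of 4 tested RNAs without a poly-A tail or kept in the nucleus, 0 were called for Pio on control diet in WT mice (0.044, 1) and 0 in KO mice (0.16, 1). With this list last, the calls were 0, 1, 0, 1, 0, 0, 0 and 1 by DESeq2 and 3, 1, 0, 1, 2, 0, 0 and 2 by limma in WT mice (6.43% and 23.9% of all tested genes), and 2, 1, 0, 2, 0, 0, 1 and 1 and 2, 2, 0, 0, 0, 0, 0 and 1 in KO mice (11.3% and 9.38%). Of the 7 skeletal muscle and 7 pancreatic acinar markers, 0 passed the filter.

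In single mice, summed over each list, WT Pio mice 841 to 845 had 81001, 138805, 103939.5, 96025 and 78765 TMM CPM of hepatocyte markers, so mouse 845, with the most mtDNA-encoded mRNA, had the least, close to mouse 841, with the least mtDNA-encoded mRNA. Their endothelial and stellate markers (6, led by Dcn) summed to 172, 228, 259, 249 and 352 and their Kupffer cell and macrophage markers (8, led by Cd5l) to 169, 352, 478, 301 and 406. KO Pio mice 11 to 15 had 14.3, 19.4, 73.0, 15.4 and 16.4 of bile duct markers (4, led by Sox9) and 0.453, 0.395, 87.3, 2.19 and 0.114 of pancreatic acinar markers (7, led by Ctrb1). Mouse 13, with the least mtDNA-encoded mRNA, was the highest of them in both. Mouse 829 had 64.3 of bile duct markers. KO HFD mouse 10 had 666 of pancreatic acinar and 16.9 of skeletal muscle markers (7). Of the latter Mylpf led on average over all mice, but it reached at most 1.255 in a mouse. KO HFD mouse 9 had 194 of adipocyte markers and 858 of Kupffer cell markers. Over all mice the sums were 194 to 5219.9 for adipocyte (6, Retn included), 147 to 2027 for blood (5, led by Hbb-bs), 0.483 to 5.93 for lymphocyte (4, led by Cd3e), 0.253 to 16.9 for skeletal muscle, 0 to 666 for pancreatic acinar and 10.2 to 73.0 for bile duct markers. The adipocyte sum was almost wholly Car3, with 184 to 5193 TMM CPM, while Adipoq reached at most 0.669, Lep 0.164 and Plin1 2.15. Of the 12 RNAs without a poly-A tail or kept in the nucleus, led by Malat1, Rn7s1, Snora73a, Snora73b and Rprl3 were at 0 in all mice, and no cell type marker was. The part of these other RNAs in the mtDNA-encoded mRNA levels was not tested.

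The nuclear genes whose levels went most closely with these mRNAs from mouse to mouse were ranked by Pearson correlation with the mean log2 level of the 13 mRNAs, after the group means were taken off, by the smaller of the values over 20 WT and 20 KO mice. With all mice they were, with r in WT and KO mice, Zfp207 (0.90 and 0.96), B2m (0.86 and 0.96), Eif4e2 (0.86 and 0.97), Smarce1 (0.85 and 0.95) and Orc3 (0.85 and 0.98), out of 12923 genes. Without mice 845 and 13 (n = 19 in each genotype) they were AI182371 (0.79 and 0.87), Orc3 (0.80 and 0.74), Cat (0.78 and 0.74), Cnih1 (0.72 and 0.72) and Utp3 (0.72 and 0.76). The only gene in both sets was Orc3. Of the others of the first set, without these mice Zfp207 had 0.90 and -0.10 in WT and KO mice, B2m 0.88 and 0.33, Eif4e2 0.75 and 0.54 and Smarce1 0.75 and 0.15, so their WT values stayed high without mouse 845 while their KO values were much lower without mouse 13. Polrmt was -0.65 and -0.93 with all mice and -0.38 and 0.39 without them, and Tfam -0.36 and -0.80 and -0.17 and 0.45. The mean level includes the mRNAs with almost no counts, although no change of them could be measured. All genes of a library share its depth and scaling factor, and these correlations are a description without a test.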

How the data were processed

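RNA of 40 livers was sequenced. Reads were aligned by the authors to GRCm38 (STAR 2.0.4b), and they deposited, per gene, the count of uniquely aligned, unambiguous reads from featureCounts 1.4.5 of Subread, and the GC content in percent, whose making is not stated. Repeated lines were dropped, the tables joined by gene identifier (40594 genes), and 355 rRNA genes removed. Filtering kept genes that reached 1 CPM in 5 or more mice. Tests used R 4.3.3 and edgeR 4.0.16, with TMM factors, a robust quasi-likelihood F test in a model of 8 groups, and Benjamini-Hochberg adjustment within each of 12 comparisons. A gene was called if its adjusted p was 0.05 or less. DESeq2 1.42.0, limma 3.58.1, library sizes without TMM, DESeq2 size factors, TMM without mtDNA genes, no filter, rRNA kept, each genotype alone and left-out mice were alternatives. Leaving out mice 829 and 832 as well was chosen after seeing the data. Members and lists were chosen with earlier results of these data known. The 13 mRNAs were named throughout, from each other list at most the 2 called genes with the largest positive and the 2 with the largest negative change per comparison, and Tfam, Polrmt, Lrpprc, Slirp, Mtpap and Ppargc1a always, with Pparg and the 5 nuclear genes most like the mRNAs. Stretches of 50 bases were compared with GENCODE M21 transcripts. Reads carry no molecular identifiers, so intervals cover counting error only. Figures were drawn with matplotlib 3.10.9 in Python 3.11.15, and tables made with scipy 1.17.1, numpy 2.4.6 and pandas 2.3.3.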

Additional observations from a re-analysis of the deposited data

Results flagged for a closer look

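The level and the pool share of the tested mRNAs and their summed share were examined in 120 groups of 5 mice for a mouse whose gap to its neighbour was large beside the range of the group (Dixon's ratio), and 14 groups had such a mouse. Chance gives about 1 in 20 for separate groups, but these quantities come from the same mice, so the count of 14 was not compared with chance. WT Pio mouse 845 stood apart with 36194 TMM CPM of mt-Nd2 and 9473 of mt-Nd6, both the highest, and with 9.89% mt-Co1 in the pool, the lowest. WT HFD-Pio mouse 840 had the highest mt-Nd2 (8130.0 TMM CPM) and mt-Nd6 (1680.0 TMM CPM) of its group. KO HFD mouse 9 had the lowest mt-Co1 (11200.0 TMM CPM), mt-Nd4 (4625) and mt-Cytb (14092). WT HFD mouse 829 had the lowest mt-Cytb (6731 TMM CPM, 16.4% of the pool) and the highest share of mt-Nd1 (27.6%). KO Pio mouse 13 had the lowest share of mt-Co1 (18.8%) and the highest of mt-Nd4 (9.62%), and WT control mouse 832 the lowest of mt-Cytb (25.0%).

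The effect of Pio on control diet differed between KO and WT mice by the test of the interaction for mt-Nd2 (-1.90), mt-Nd5 (-1.97), mt-Nd6 (-2.25), Hsd17b10 (-2.14), Immt (-0.69) and Atp5k (-1.50, all log2). Without mouse 845 mt-Nd2 (-1.15), mt-Nd5 (-1.39) and mt-Nd6 (-1.51) were not called. The call of mt-Nd2 was lost in 32 and that of Atp5k in 29 of 40 fits that left out 1 mouse. The causes were not tested.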

How the results depend on the processing

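Counts of called mRNAs and 71 log2 fold changes were computed again under 10 other settings and with each of 40 mice left out, except that a fit of each genotype alone gave no interaction with genotype. Under the other settings 590 log2 fold changes kept direction and side of the threshold, 52 lost a call, 27 gained one and 29 changed sign. Library sizes without TMM factors moved the median of all genes by -0.19 for Pio and -0.16 for HFD in WT mice, and by 0.27 and 0.23 in the interactions of Pio with diet in WT mice and with genotype on control diet. For Pio on control diet in WT mice (3 called), DESeq2 called 5 (6.43% of all tested genes) and limma 7 (23.9%). Without mice 845 and 13, 2 were called (9.77%), and 4 (12.6%) with 829 and 832 left out as well. For WT HFD-Pio against WT Pio (2), limma gave 7 (22.7% of all tested genes). Library sizes gave 0, no filter 1 and WT mice fitted alone 1, and the share of all genes called in these fits is not given here. For the interaction with diet in WT mice (0), DESeq2 gave 1 (1.13% of all tested genes) and limma 6 (10.6%). Without mice 845 and 13, 1 was called (1.31%), and 2 (2.20%) with 829 and 832 left out as well, chosen after seeing the data. For the interaction with genotype on control diet (3), DESeq2 gave 4 (11.0% of all tested genes) and limma 4 (15.4%). Without mice 845 and 13, 1 was called (3.96%), and 2 (6.07%) with 829 and 832 left out as well. With 1 mouse left out these counts ran from 0 to 6, 0 to 5, 0 to 4 and 0 to 5 in this order, and were 0 in the other comparisons. The shares of all tested genes called in these fits are not given here. Fewer or more calls of these mRNAs can thus not be told apart from fewer or more calls among all genes.

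Of these 71, the following changed sign. By limma they were -0.12 for mt-Co1 (WT HFD-Pio against HFD), 0.0069 for mt-Nd6 (KO Pio), -0.23 for mt-Nd1 (KO HFD-Pio against Pio), -0.23 for mt-Nd1 and -0.025 for mt-Cytb (KO interaction with diet), 0.071 for mt-Co1 (genotype on HFD), -0.13 for Tfam and -0.28 for Slirp (WT Pio), and -0.082 for Polrmt, 0.080 for Slirp and 0.013 for Mtpap (KO Pio). Over all 7 tested mRNAs, those with positive values went from 1 by edgeR to 5 by limma for KO Pio, from 7 to 4 for KO HFD-Pio against Pio, from 7 to 0 in the KO interaction with diet and from 4 to 1 for KO HFD-Pio against HFD. Of the 71, those that changed sign without mice 845 and 13 were -0.16 for mt-Nd1 in KO HFD-Pio against Pio, -0.16 in the KO interaction, and for KO Pio -0.029 for Esrra, -0.10 for Polrmt, 0.080 for Slirp and 0.14 for Ppargc1a. With 829 and 832 left out as well the same values were -0.16, -0.16, -0.038, -0.11, 0.071 and 0.13, with -0.070 for mt-Co1 in WT HFD-Pio against HFD, 0.084 in the interaction with genotype on HFD and -0.091 for Slirp (WT Pio). With library sizes they were -0.017 for Tfam, -0.00046 for Lrpprc and -0.067 for Slirp (WT Pio).

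With 1 mouse left out, signs changed within -0.076 to 0.17 (mt-Co1, WT HFD-Pio against HFD), -0.27 to 0.0092 (mt-Co1, WT HFD), -0.12 to 0.017 (mt-Co1, KO HFD), -0.15 to 0.092 (mt-Co1, genotype on HFD), -0.13 to 0.29 (mt-Nd1, KO Pio), -0.16 to 0.24 (mt-Nd1, KO HFD-Pio against Pio), -0.18 to 0.24 (mt-Nd1, KO interaction), -0.079 to 0.19 (Tfam) and -0.14 to 0.25 (Slirp) for WT Pio, and for KO Pio -0.013 to 1.42 (Esrra), -0.084 to 0.97 (Polrmt), -0.34 to 0.10 (Slirp), -0.38 to 0.012 (Mtpap) and -0.38 to 0.15 (Ppargc1a). In all these cases the cause was not tested. From these counts mt-Co2, mt-Co3, mt-Atp6, mt-Atp8, mt-Nd3 and mt-Nd4l could not be measured.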
